A study of Mus musculus with 6 samples.

Results

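C/D box snoRNAs are small nucleolar RNAs that carry the short sequence boxes C and D, and in these data they are the RNAs annotated as snoRNA whose symbol begins with Snord. A read pair counted if either fragment bore such a name, and read pairs with equal coordinates were counted once. The rule found 239 C/D names with 131 distinct symbols among the 26158 RNA names of the 4 libraries used. Of the 346 Snord genes in the GENCODE vM1 annotation, 232 were present. The same libraries held 620 H/ACA names (symbols beginning with Snora), which served as the comparison class. U3, a C/D RNA of ribosome assembly, is annotated here without a Snord symbol and was not a member.

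MARIO ligates RNAs that are bound close together by 1 protein, with a biotin-tagged linker between the first fragment (RNA1) and the second (RNA2). The E14 line of mouse embryonic stem (ES) cells, from strain 129/Ola and grown without feeders in serum and LIF, gave 3 libraries. ES-1 and ES-2 came from cells irradiated with ultraviolet light at 254 nm and RNA cut by RNase I to about 1000 nt (up to 2000 nt for ES-1 by the study's methods, which the labels do not say), with ribosomal RNA (rRNA) removed enzymatically (duplex-specific nuclease) for ES-1 and by a hybridization kit for ES-2. ES indirect (also called the indirect library) came from cells fixed with formaldehyde and EGS, which also link protein to protein, and RNA sonicated to about 1000 nt, with nuclease depletion as in ES-1. MEF came from embryonic fibroblasts of strain C57Bl/6 irradiated at 254 nm, with RNA cut to about 300 nt and depleted with the kit. ES therefore had 2 libraries and the other groups 1 each, and nothing in the labels says whether ES-1 and ES-2 came from separate cultures, so their spread may be technical. Cell type, strain and fragment size cannot be told apart between MEF and ES. All groups shared protein biotinylation, capture on streptavidin and proximity ligation.

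C/D snoRNAs guide the methylation of ribose in rRNA and in small nuclear RNA. Box C near the 5′ end and box D near the 3′ end bind the core proteins, the methylase fibrillarin among them, and most members carry a second, less conserved pair of boxes, C′ and D′. The stretch just upstream of box D or D′ pairs with the target. H/ACA snoRNAs fold into hairpins and guide pseudouridine formation instead. In mammals most of both classes are cut from introns of host genes, many of which encode ribosomal proteins or noncoding RNAs such as Gas5 and Snhg1.

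After collapsing, 2310134 of 3230403 read pairs remained in ES-1, 1241787 of 1312314 in ES-2, 1655476 of 3302146 in the indirect library and 373978 of 474526 in MEF. MEF stood apart. Its RNA1 sequences matched the genome at the stated position in 59.9% and its RNA2 sequences in 54.7%, against 75.4% to 95.6% on either side in the ES libraries, so part of its names may be wrong. Of 8 pluripotency markers, all 8 were seen in each ES library, at a summed 134 to 315 ends per 1000000 ends (EPM), and 5 in MEF, at 16. The 8 fibroblast markers reached 600 EPM in MEF and 93.3 to 131 in ES. The annotated sequences fitted the class names. The letters TGATGA, a form of box C, lay in the first 25 nt of 75.4% of Snord genes and 0.485% of Snora genes. CTGA, a form of box D, lay in the last 20 nt of 94.2% and 10.9%, and ACA in the last 10 nt of 5.20% and 64.4%. Snord genes had a median length of 79 nt (53 to 238) and Snora genes one of 130 nt (50 to 246).

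In the rRNA fragments joined to a C/D snoRNA, stretches complementary to that snoRNA were several times as frequent as in the rRNA fragments joined to other snoRNAs for a part of the class. By the rule given further on, with 1 window kept per snoRNA and kind, 27 such sites were called in ES-1 and again in ES-2, of which 16 ended at a CTGA and 11 did not. The examples below are C/D snoRNAs for which this held in both ES-1 and ES-2, chosen after their values were seen for their large shares and for the range of hosts and rRNAs. Each snoRNA is written 5′ to 3′ as DNA from the NCBIM37 (mm9) genome with the complementary element in capitals, followed by the stretch of the joined rRNA as read in the fragments, with the bases that pair with the element in capitals.
Snord42b: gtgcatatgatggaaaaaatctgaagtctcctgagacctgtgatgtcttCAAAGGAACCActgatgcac
18S rRNA joined to Snord42b: cagttaTGGTTCCTTTGgtcgct
Snord14d: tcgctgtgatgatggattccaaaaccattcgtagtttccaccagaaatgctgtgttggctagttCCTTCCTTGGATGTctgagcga
18S rRNA joined to Snord14d: gctaccACATCCAAGGAAGGcagcag
SNORD27: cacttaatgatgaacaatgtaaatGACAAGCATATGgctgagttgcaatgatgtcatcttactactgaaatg
18S rRNA joined to SNORD27: cagtagCATATGCTTGTCtcaaag
SNORD25: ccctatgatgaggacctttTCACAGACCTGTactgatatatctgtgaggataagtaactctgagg
18S rRNA joined to SNORD25: gcaataACAGGTCTGTGAtgccct
Snord1b: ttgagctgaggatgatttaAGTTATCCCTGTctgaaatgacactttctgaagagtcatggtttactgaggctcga
28S rRNA joined to Snord1b: gttaccACAGGGATAACTggcttg
SNORD26: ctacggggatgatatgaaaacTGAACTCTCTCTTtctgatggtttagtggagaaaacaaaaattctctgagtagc
28S rRNA joined to SNORD26: actttgAAGAGAGAGTTCAagaggg
SNORD60: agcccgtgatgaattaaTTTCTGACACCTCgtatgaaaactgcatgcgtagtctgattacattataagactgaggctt
28S rRNA joined to SNORD60: aagcagGAGGTGTCAGAAAagttac
Snord34: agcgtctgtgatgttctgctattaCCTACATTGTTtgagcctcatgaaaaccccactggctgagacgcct
28S rRNA joined to Snord34: AACAATGTAGG

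The 18S and 28S sequences are those the files name as the small and large subunit rRNA repeats. Snord42b lies in the host gene Rpl23a, at chr11:77996558-77996626 on the minus strand, and Snord14d in Hspa8 at chr9:40612078-40612163 on the plus strand. SNORD25 (chr19:8798486-8798550), SNORD26 (chr19:8798741-8798815) and SNORD27 (chr19:8799021-8799092) lie on the plus strand of Snhg1. Snord1b lies in 1810032O08Rik at chr11:116535462-116535536 on the plus strand and Snord34 in Rpl13a at chr7:52381971-52382040 on the minus strand. SNORD60, at chr17:24665421-24665498 on the plus strand, had no annotated host on its strand. In Snord42b, Snord14d and Snord1b the element ran up to the first base of a CTGA, in SNORD25, SNORD26 and SNORD27 it stopped 1 nt short of one, and in SNORD60 and Snord34 it lay 22 and 24 nt upstream of the next CTGA.

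For Snord42b, 232 of 1390 joined rRNA fragments in ES-1 held the complement of an 11-nt stretch of the 16-nt window that ends at the box (16.7%, 95% Wilson interval 14.8 to 18.7), against 2.05% of the rRNA fragments joined to other snoRNAs. In ES-2 it was 32 of 365 (8.77%, 6.28 to 12.1) against 0.575%. Wilson intervals throughout cover counting error only, since collapsed read pairs need not be independent molecules. For each window, the share among other snoRNAs was weighted to the mix of RNA1 and RNA2 ends of the snoRNA compared. Any snoRNA that itself holds an 11-nt stretch of the window was left out of that share. SNORD60 had the highest share. The complement was in 461 of its 2589 rRNA fragments in ES-1 (17.8%, 16.4 to 19.3) against 1.53%, and in 228 of 814 in ES-2 (28%, 25 to 31.2) against 1.38%. For Snord1b the share was 12.2% (72 of 591) against 1.52% in ES-1 and 11.7% (13 of 111) against 1.18% in ES-2. SNORD27 had 3.04% (46 of 1515) against 0.854% in ES-1 and 10.3% (42 of 406) against 0.654% in ES-2. SNORD25 had 2.13% (53 of 2492) against 0.699% in ES-1 and 8.72% (55 of 631) against 0.874% in ES-2. For SNORD26 the shares were 2.45% (80 of 3270) against 0.530%, and 3.77% (16 of 424) against 0.137%. Snord34 had 1.96% (24 of 1227) against 0.341% in ES-1 and 11.4% (57 of 500) against 0.449% in ES-2. Thus most rRNA fragments joined to any of these snoRNAs did not hold the complementary stretch.

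Snord14d, whose relatives act in processing of the small subunit rRNA, could be followed in 3 libraries. Its complement was in 17 of 193 rRNA fragments in ES-1 (8.81%, 5.57 to 13.7, against 1.42%), in 16 of 93 in ES-2 (17.2%, 10.9 to 26.1, against 0.937%) and in 42 of 336 in the indirect library (12.5%, 9.38 to 16.5, against 4.56%). The own share was above that of other snoRNAs in all 3. No window of a C/D snoRNA in MEF had the 50 rRNA fragments needed.

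Over the class, a 16-nt window was examined where the snoRNA had at least 50 rRNA fragments and at least 20 of the fragments joined to other snoRNAs held a complement. It was called higher where the lower Wilson bound of the own share exceeded the share among other snoRNAs with at least 5 own fragments. Windows overlap and share fragments, so these calls are descriptions with no p. In ES-1, 64 windows that end at a CTGA were examined, the own share was the higher in 52, and 30 were called, which is 46.9% against 38.4% of all snoRNA windows. The mean own share was 3.14% against 0.757%. Windows of C/D snoRNAs that share no 11-nt stretch with a box window had means as high or higher, 3.76% against 0.507% in ES-1 and 8.25% against 0.538% in ES-2, and 48.8% and 61.2% of those examined were called. H/ACA windows had means of 1.54% against 0.624% in ES-1 (25.1% called) and of 7.82% against 0.990% in ES-2 (52.7% called). The excess was thus not limited to C/D snoRNAs or to windows at a CTGA. Only CTGA was searched, so a window away from it may still lie at a box of another form. In ES-2, 33 of 37 windows at a CTGA were higher and 20 called (54.1% against 54.8% of all windows), with means of 4.88% and 0.534%. In ES indirect all 6 windows at a CTGA were higher and all 6 called, where 50.9% of all windows were. Of 39 C/D windows away from a CTGA, in 4 snoRNAs, 33 were higher but none was called. Their median ratio of own to other share was 4.70, against 3.79 at a CTGA. In SNORD75, 4 of 54 fragments held the complement, under the 5 that a call needs. The called share at CTGA was thus close to that of all windows that could be examined in ES-2, and the position of the box showed in which windows could be examined at all.

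Of the 246 windows that end at a CTGA in C/D snoRNAs with enough rRNA fragments in ES-1, 64 (26%) had complements in rRNA fragments often enough to be examined, against 168 of 6109 windows (2.75%) that share no 11-nt stretch with a box window. In ES-2 the shares were 22.6% (37 of 164) and 2.81% (of 4122 windows). Among H/ACA snoRNAs 1.31% of windows away from CTGA could be examined in ES-1 and 0.902% in ES-2. By gene, 42 of 123 C/D snoRNAs (34.1%, 26.4 to 42.9) had a called window in ES-1 and 12 of 174 H/ACA snoRNAs (6.90%, 3.99 to 11.7). In ES-2 it was 31 of 85 (36.5%, 27 to 47.1) and 12 of 125 (9.60%, 5.58 to 16). A snoRNA with no window that could be examined cannot be called. Such a window was present in 125 snoRNAs of both classes in ES-1 and 75 in ES-2, of which 45 and 22 were H/ACA. These shares therefore also count that filter. Counted only over snoRNAs with such a window, the gap between the classes was smaller, and it was slight in ES-2. Related copies within a class share sequence and are not independent.

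**Figure D1:**
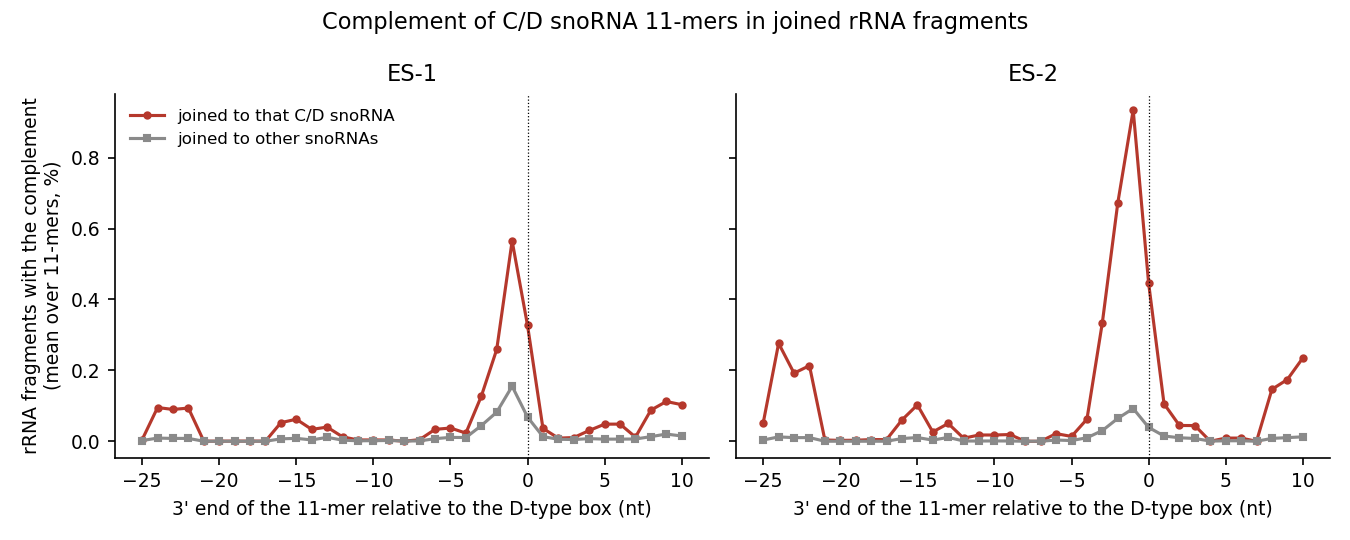
Mean share of joined rRNA fragments that hold the complement of an 11-nt stretch of a C/D snoRNA (percent, vertical axis) by the distance of the stretch's 3′ end from a CTGA (nt, horizontal axis, negative before the box, dotted line at the box), for that snoRNA's own fragments (red circles) and those of other snoRNAs (grey squares). Unlike in the windows, the share of other snoRNAs is not weighted by side here. Own fragments peak at stretches that end 1 nt before the box, at 0.565% against 0.155% (ES-1) and 0.934% against 0.0924% (ES-2).

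In the plot of complementary stretches by distance from the box, the own share was highest 1 nt before a CTGA in both libraries and it exceeded that of other snoRNAs at most other distances too. The share of other snoRNAs was highest at the same place. At 22 nt before the box the own share was 0.0937% against 0.00811% in ES-1 and 0.213% against 0.0103% in ES-2. In the 37 windows at CTGA examined in both libraries, the own share was the higher in both for 31, and 16 were called in both.

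**Figure D2:**
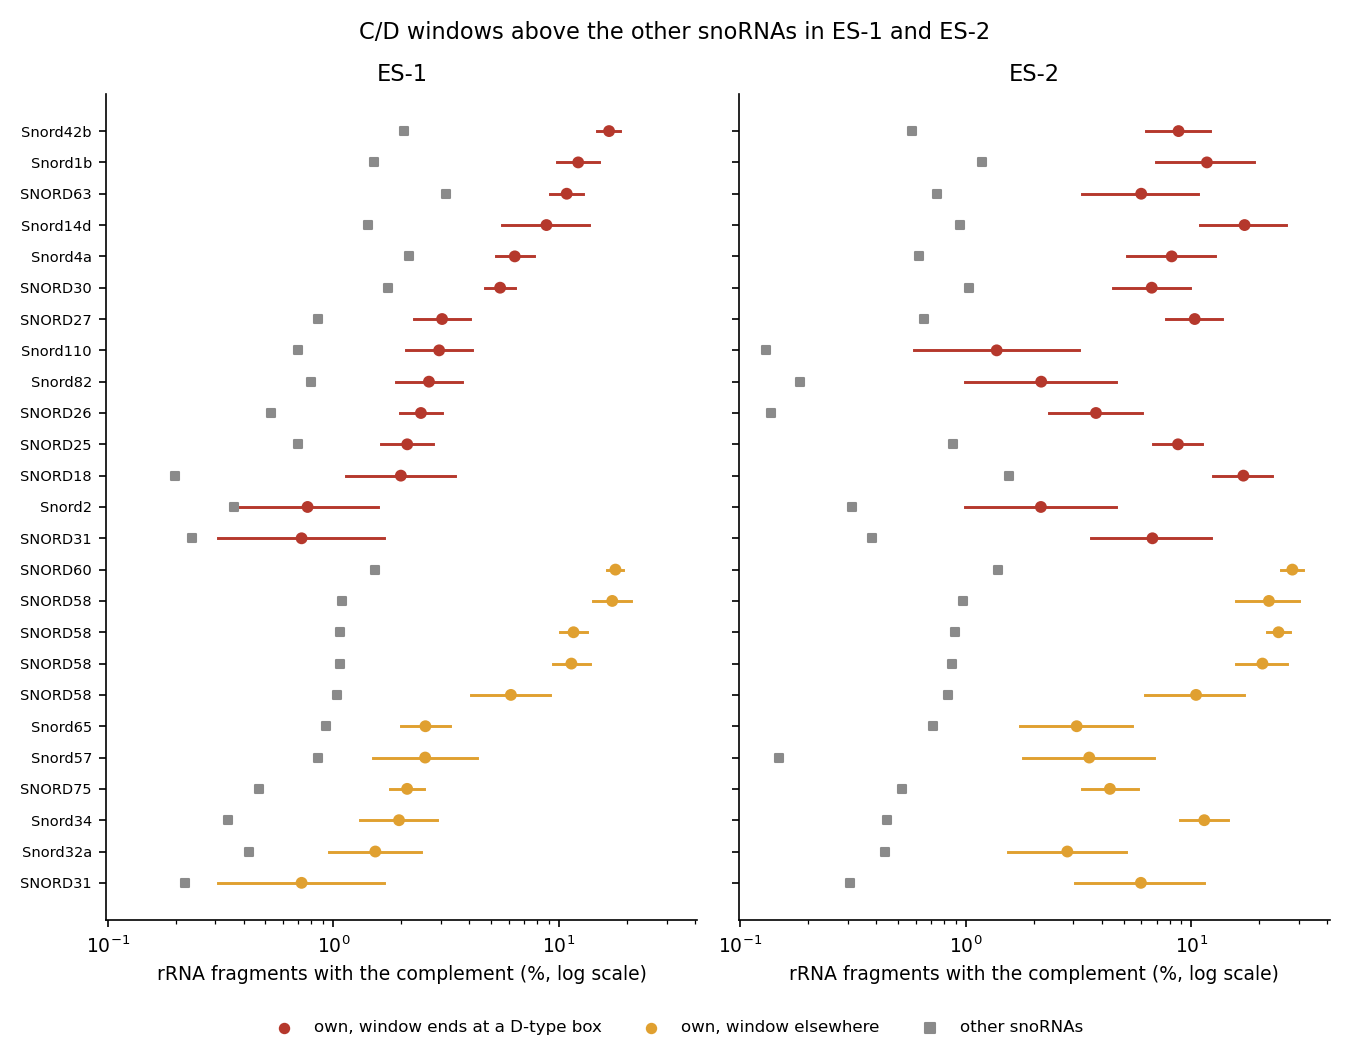
Share of rRNA fragments holding the complement (percent, log scale) for 25 of the 27 C/D sites (1 window per snoRNA and kind) called in each of ES-1 and ES-2, with 95% Wilson bars for own fragments (red, window ends at a CTGA, the D-type box; yellow, window elsewhere) and grey squares for other snoRNAs. Every own point lies above its grey square, as the rule for a call requires, from 0.724% to 17.8% in ES-1 and 1.37% to 28% in ES-2.

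The 27 sites called in both libraries belonged to 26 genes of 23 symbols, since SNORD31 had a window of each kind over a single element and SNORD58 was present as several copies. The elements were 11 to 17 nt long with a median of 12, and 18 pointed to the large subunit rRNA and 9 to the small. The ratio of own to other share was higher in ES-2 than in ES-1 at all 27. ES-1 and ES-2 differ in rRNA depletion and in fragment length (RNA1 median of 44 and 28 nt). Each of these snoRNAs also had fewer rRNA fragments in ES-2, so a call there tends to need a larger ratio. The part of these in the ratio was not tested. Besides the snoRNAs above, Snord4a of Rpl23a had 6.37% against 2.16% in ES-1, SNORD30 of Snhg1 5.49% against 1.75%, and SNORD18 of Rpl4 1.99% against 0.199%. Snord110 of Nop56 (2.95% against 0.696%) and Snord82 of Ncl (2.65% against 0.793%) are hosted by genes of proteins that themselves act in the nucleolus. Among the windows that do not end at a CTGA, SNORD75 of Gas5 had 2.12% against 0.468%, Snord65 2.56% against 0.931% and Snord32a 1.54% against 0.421%. Snord57 had 2.55% against 0.858% in such a window, but its element, like that of SNORD31, reached 1 nt into a CTGA. The H/ACA class had 12 such sites in 11 genes.

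Ends in C/D snoRNAs were 164248 in ES-1 (3.56% of all ends), 52168 in ES-2 (2.1%), 9221 in the indirect library (0.279%) and 1970 in MEF (0.263%). H/ACA snoRNAs had 751487, 184268, 10194 and 41504. The log2 ratio of C/D to H/ACA ends was −2.19 in ES-1, −1.82 in ES-2, −0.14 in the indirect library and −4.40 in MEF, with a mean of −2.14 ± 1.75 (SD, n = 4). It was below 0 in 4 of 4 libraries, with a mean of −1.39 without MEF. An exact two-sided sign-flip permutation test gave p = 0.13, the smallest that 4 libraries allow, so no class comparison here could pass 0.05. Ends count joined fragments and are not a direct measure of RNA amount. In the same E14 line C/D ends were 35549 EPM in ES-1 and 2785 in ES indirect, which differ in crosslinking and fragmentation. The classes also differ in number of names (212 and 502 in ES-1) and in length, and the part of these in the ratio was not tested. The counts come from whole cultures, in which fewer cells with an RNA and less RNA per cell cannot be told apart.

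A C/D end was RNA1, on the 5′ side of the linker, in 74.5% of cases in ES-1 and 63.5% in ES-2, but in 30.4% in the indirect library and 34.9% in MEF. For H/ACA it was 76.8%, 71.5%, 44.8% and 44.7%. Ends on the sense strand of the snoRNA made up 97.4% to 99.9% of C/D ends. Of the names, 127 were seen in all 4 libraries, and 146, 134, 89 and 29 had at least 20 read pairs in ES-1, ES-2, the indirect library and MEF. The order of names by ends was much alike in ES-1 and ES-2 (Spearman's rho of 0.944 over 147 names), less so between ES-1 and ES indirect (0.540 over 147) or MEF (0.674 over 146). These correlations are across RNAs and carry no test.

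**Figure D3:**
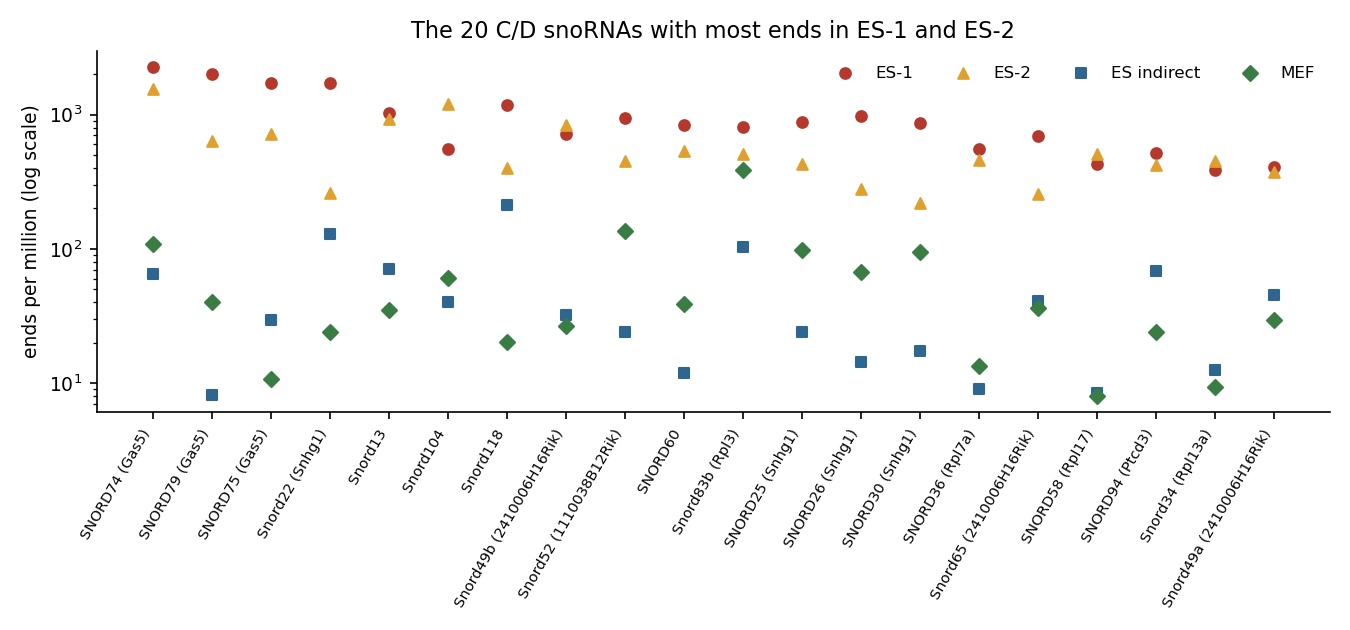
Ends per 1000000 ends (EPM, vertical axis, log scale) of the 20 C/D snoRNAs with most ends in ES-1 and ES-2, by library, with the host gene in brackets. ES-1 and ES-2 lie highest for all 20, and Snord83b of Rpl3 is the one with most ends in MEF, at 389.

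The 20 RNAs with most ends of each library held 55.5% of all C/D ends in ES-1 and 55.2% in ES-2. Values below are EPM, not divided by length, and are compared across libraries for 1 RNA at a time. SNORD74 of Gas5 had 2262 in ES-1, 1563 in ES-2, 64.6 in the indirect library and 108 in MEF. SNORD79 and SNORD75 of the same host had 2000 and 1737 in ES-1, 635 and 713 in the ES-2 library, 8.16 and 29.6 in the indirect library, and 40.1 and 10.7 in MEF. These Gas5 RNAs were thus highest in ES-1, and ES-2 in turn exceeded both other libraries. Snord104 had 556 in ES-1 and 1202 in ES-2, the reverse order. Snord49b, Snord34 and SNORD58 were also higher in ES-2 (842, 451 and 505) than in ES-1 (716, 388 and 432). Snord22 of Snhg1 had 1715 in ES-1, 261 in ES-2, 130 in the indirect library and 24.1 in MEF, the widest gap between ES-1 and ES-2 among the 20 plotted. Snord83b, in an intron of Rpl3, had 817, 513 and 103 in the ES libraries and 389 in MEF.

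RNAs listed for a role in pre-rRNA processing took a larger share of C/D ends in the indirect library. This list holds 8 names with symbols Snord118 (U8), Snord13 (U13), Snord14 (U14, which also guides methylation) and Snord22. All 8 were seen, and they made up 11.9% of C/D ends in ES-1, 8.79% in ES-2, 35.6% in the indirect library and 7.41% in MEF. Their summed level was 4211, 1847, 992.5 and 195 EPM, so it was lower in the indirect library than in ES-1 and ES-2 although its share was higher. All C/D ends together had 35549 EPM in ES-1 and 2785 in the indirect library, and of these Snord13 and Snord22 (1715 and 130 EPM) made up no larger a share in the indirect library than in ES-1. Compared with ES-2, however, the share of Snord22 was larger (430 of 9221 C/D ends in the indirect library, 648 of 52168 in ES-2). Snord118 had 1188, 401, 213 and 20.1 EPM in that order, and Snord13 had 1035, 922, 70.4 and 34.8. Snord14d had 77.3 in ES-1, 76.1 in ES-2, 193 in the indirect library and 50.8 in MEF, so ES indirect was highest, as it was for its neighbours Snord14c (72.3, 51.1, 187 and 29.4) and Snord14e (104, 115.6, 159 and 28.1). These 3 lie in introns of Hspa8 and share sequence, so reads may be divided among them with some error. ES indirect is 1 library and the difference has no replicate check.

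The lists for Gas5, Snhg1 and Rpl13a go by symbol number, so they include copies outside the host and can leave out RNAs within it. That of Gas5, a noncoding host whose spliced product is unstable in growing cells, had 9 of 11 annotated copies seen and 19.9% of C/D ends in ES-1, 16.4% in ES-2, 5.26% in the indirect library and 8.88% in MEF. That of Snhg1 had 11 of 12 seen and 15.7%, 9.04%, 8.81% and 15.6%. That of Rpl13a, a ribosomal protein gene, had 5 of 6 seen and 3.38%, 5.58%, 4.53% and 1.68%. In ES-1 the lists held 32663, 25812 and 5543 ends, against 33635, 25541 and 4953 in snoRNAs lying within these hosts. Hosts annotated as lincRNA carried 44.1% of C/D ends in ES-1, 36.3% in ES-2, 22.1% in the indirect library and 32.4% in MEF, and protein-coding hosts 39.8%, 44.3%, 63.0% and 53.7%. Protein-coding hosts thus carried more ends than lincRNA hosts in every library except ES-1.

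Members of the imprinted clusters (Snord64, Snord107, Snord113, Snord115 and Snord116 were seen), orphan RNAs with no rRNA target that are mostly known from brain, numbered 87 of 188 annotated copies. They held 1.10% of C/D ends in ES-1, 1.05% in ES-2, 1.46% in the indirect library and 0.152% in MEF, which is 3 ends in MEF. Most of the 87 rest on a handful of ends each. Snord64 had 449 ends in ES-1, 162 in ES-2, 6 in the indirect library and 1 in MEF, and Snord107 had 467, 92, 15 and 0. In MEF a count of 0 allows up to 3 ends.

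Self pairs, with both ends in 1 snoRNA, were 1.33% of C/D read pairs in ES-1 (1.27 to 1.38), 3.08% in ES-2 (2.93 to 3.23), 5.52% in the indirect library (5.06 to 6.03) and 1.98% in MEF (1.44 to 2.70). For H/ACA they were 3.18%, 2.57%, 14.7% and 2.54%. In MEF both ends were on the sense strand in only 6 of the 38 C/D and 395 of the 977 H/ACA self pairs, against 2126 of 2127 and 21686 of 21885 in ES-1, and the MEF shares for sense pairs alone were 0.312% and 1.03%. The difference was −1.85 percentage points in ES-1, 0.508 in ES-2, −9.15 in the indirect library and −0.562 in MEF, with a mean of −2.76 ± 4.37 (SD, n = 4, exact sign-flip permutation p = 0.25), so C/D was lower in 3 of 4 libraries and the difference did not exceed the spread. Without ES indirect, the library of chemical crosslinks, the mean was −0.635. The shares themselves depended on counting read pairs with equal coordinates once. With every line counted, self pairs in the indirect library rose to 15.7% for C/D and 28.1% for H/ACA. The C/D and H/ACA shares were then 4.58% and 2.86% in ES-2, 1.68% and 5.08% in ES-1, and 2.08% and 3.10% in MEF. The mean difference was −3.77. Whether lines with equal coordinates are separate molecules was not tested.

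Single C/D RNAs varied widely in self pairs, from 0 to 17.7% in ES-1 and from 0 to 16.7% in ES-2 among those with at least 20 read pairs, and the medians were 0.926% and 1.83%. The RNAs with high shares were chosen after their values were seen. Snord17, the longest C/D RNA at 238 nt, had 17.7% in ES-1 (53 of 300), 16.7% in ES-2 and 53.9% in the indirect library (96 of 178). SNORD94, of 137 nt, had 7.93% (175 of 2206), 10.7% and 25.4% (46 of 181). Snord15a and Snord15b of Rps3, of 148 and 145 nt, had 8.89% and 14.1% in ES-1 and 38.9% and 25.9% in the indirect library. These 4 exceed the class median length, but Snord104, of 70 nt, had 7.77% in ES-1 and 11.2% in ES-2. Snord118 and Snord22, of 135 and 126 nt, had 1.03% each in ES-1 but 11.9% and 13.2% in the indirect library. Snord1b, by contrast, had none in 777 read pairs of ES-1, which allows up to 3.

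Most self pairs ran in reversed order, with the 5′ end of RNA2 upstream of the 3′ end of RNA1 on the snoRNA. Fragments that overlap are included in this count. It held for 91.7% (90.5 to 92.8) in ES-1, 81.9% in ES-2, 77.4% in the indirect library and 5 of 6 sense pairs in MEF. H/ACA self pairs ran in this order as often or more, in 91.8%, 92.5%, 77.6% and 98.2%. In ES-1, 1043 of 2126 (49.1%, 46.9 to 51.2) joined the annotated 3′ end of the RNA to its annotated 5′ end, each within 5 nt, and 47.7% did in ES-2 and 23.9% in the indirect library. Among H/ACA self pairs it was 29.9% (29.3 to 30.6), 34.7% and 13.9%. Joins of 3′ end to 5′ end were therefore more frequent in C/D than in H/ACA snoRNAs in each of the 3 ES libraries. So was joining at either end over all read pairs, given further on, and its part in these joins was not tested. A read pair does not tell whether both fragments came from the same molecule. The 5′ end of RNA1 and the 3′ end of RNA2 abutted within 2 nt in 34.7%, 35.7% and 22.9% of C/D sense self pairs. In H/ACA it was 20.6%, 20.2% and 17.2%. In the folded C/D RNA the boxes at either end lie side by side in the kink-turn, which is background and was not measured here.

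**Figure D4:**
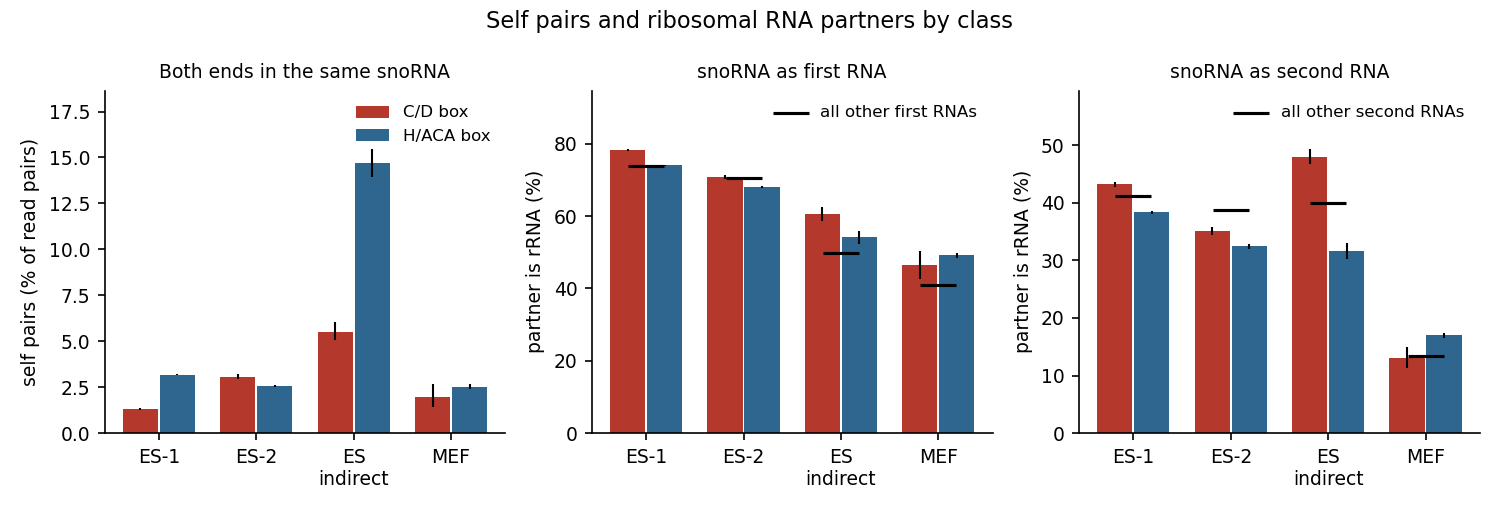
Self pairs as percent of read pairs (left), and percent of partners that are rRNA for a snoRNA on the RNA1 side (middle) and on the RNA2 side (right), for C/D (red) and H/ACA (blue) snoRNAs in 4 libraries with 95% Wilson bars; black lines give all other RNAs on that side. In ES indirect, C/D has 5.52% self pairs against 14.7%, and rRNA partners on the RNA2 side in 48.0% against 31.7%.

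Ribosomal RNA was the most frequent partner of C/D snoRNAs in the ES libraries. It made up 69.5% of non-self partners in ES-1 (69.2 to 69.7), 58.1% in ES-2 (57.6 to 58.5), 51.5% in the indirect library (50.5 to 52.6) and 24.5% in MEF (22.6 to 26.5). For H/ACA the shares were 66.3%, 58.3%, 41.3% and 31.2%. The difference, 3.17, −0.204, 10.2 and −6.75 percentage points, had no common sign, with a mean of 1.61 ± 7.06 (SD, n = 4, exact sign-flip permutation p = 0.75), and without ES indirect the mean was −1.26. With fragments of at least 20 nt that match the genome the C/D share was 75.8%, 77.5%, 64.7% and 62.2%, against 72.3%, 75.3%, 56.7% and 64.4% for H/ACA, so the MEF shares moved most. Since rRNA is more common as RNA2, the shares are also given by side. A C/D snoRNA on the RNA1 side had rRNA partners in 78.2% in ES-1, 70.8% in ES-2, 60.6% in the indirect library and 46.5% in MEF, against 73.8%, 70.6%, 49.8% and 40.8% of RNAs in neither class. On the RNA2 side it was 43.2%, 35%, 48.0% and 13% against 41.3%, 38.7%, 39.9% and 13.3%. Compared with H/ACA, C/D was higher on both sides in the 3 ES libraries and lower on both in MEF.

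The rRNA partners of ES-1 were the 28S repeat in 71.2% and the 18S repeat in 27%, and those of ES-2 in 73.5% and 25.2%. In ES indirect 45.5% were 28S and 14.7% 18S, and 37.9% bore the name Rn45s, the precursor. After rRNA, partners of ES-1 were H/ACA snoRNAs (9.50%), unannotated places (4.80%), introns (4.70%) and exons (3.70%) of protein-coding genes and other C/D snoRNAs (2.27%). In ES-2 introns (10.2%) came before H/ACA snoRNAs (5.81%). In ES indirect introns made up 17.2%, and H/ACA snoRNAs only 0.786%, fewer than other C/D snoRNAs (2.66%). Small nuclear RNAs were 0.845%, 0.389% and 1.83% of partners in the 3 ES libraries. In MEF introns made up 25.4% over all fragments.

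The sequences of these partners qualify their names. Of the fragments named for protein-coding genes, 29.4% (28.7 to 30.2) in ES-1, 26.6% in ES-2, 9.22% in the indirect library and 5.43% in MEF held a 16-nt stretch found in at least 20 rRNA fragments. A further overlap was with the snoRNA itself. A 12-nt stretch of the C/D RNA they were joined to was in 2.41% in ES-1, 5.16% in ES-2, 2.31% in the indirect library and 0.362% in MEF. Stretches of 1 other C/D RNA of the files were in 0.00747%, 0.0129%, 0.0536% and 0.181% in that order. The complement of an 11-nt stretch of the joined RNA was in 1.02%, 0.954%, 0.536% and 9.06%. For the other C/D RNA it was in 0.224%, 0.0516%, 0.161% and 0%. The median length of these fragments was 26 nt in ES-1 and 21 nt in ES-2, and 46.1% and 18.4% had at least 20 nt and matched the genome, against 91.8% and 82.1% of rRNA partners. In MEF 7.97% of the fragments named for protein-coding genes had that length and match. The complement was there also in 9.51% of unannotated partners and 6.81% of LINE, SINE or LTR partners, so it was not particular to mRNA names. Part of the mRNA names among the partners therefore rest on short fragments that hold rRNA or snoRNA sequence.

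Ligation fell within 5 nt of the annotated gene ends more often in C/D than in H/ACA snoRNAs. Annotated ends need not be those of the mature RNA, and the part of annotation in this difference was not tested. As RNA1, 75.8% of C/D ends in ES-1 (75.5 to 76), 82.3% in ES-2, 54.2% in the indirect library and 37.2% in MEF were joined within 5 nt of the 3′ end of the gene, against 56.1%, 77%, 31.7% and 24.6% of H/ACA ends. As RNA2, 66.7%, 57.6%, 61.8% and 53.9% were joined within 5 nt of the 5′ end, against 44.1%, 46.5%, 33.2% and 34.1%. C/D was higher in 4 of 4 libraries on both sides, and the Wilson intervals of the classes did not overlap in any. These intervals take no account of read pairs gathered in few RNAs, and the share within 5 nt was not tested over libraries. The relative position of the junction, 0 at the start of the gene and 1 at its end, had RNA2 medians of 0.0145, 0.0286, 0.0215 and 0.0319 for C/D and of 0.0611, 0.0362, 0.185 and 0.101 for H/ACA. C/D was lower in 4 of 4 libraries with a mean difference of −0.0716 ± 0.0661 (SD, n = 4, exact sign-flip permutation p = 0.13, the smallest possible), and of −0.041 without ES indirect. In ES-2 the direction turned with every line counted (0.0278 against 0.0226) and with well-matched fragments (0.0286 against 0.0233). On the RNA1 side the medians were 0.987, 1.00, 0.987 and 0.808 against 1.00, 1.00, 0.747 and 0.619, with a mean difference of 0.104 ± 0.129 (exact sign-flip permutation p = 0.5, n = 4), and of 0.0585 without ES indirect. C/D RNAs are shorter, so a given distance in nt is a larger part of them, and the part of length in the share within 5 nt was not tested.

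**Figure D5:**
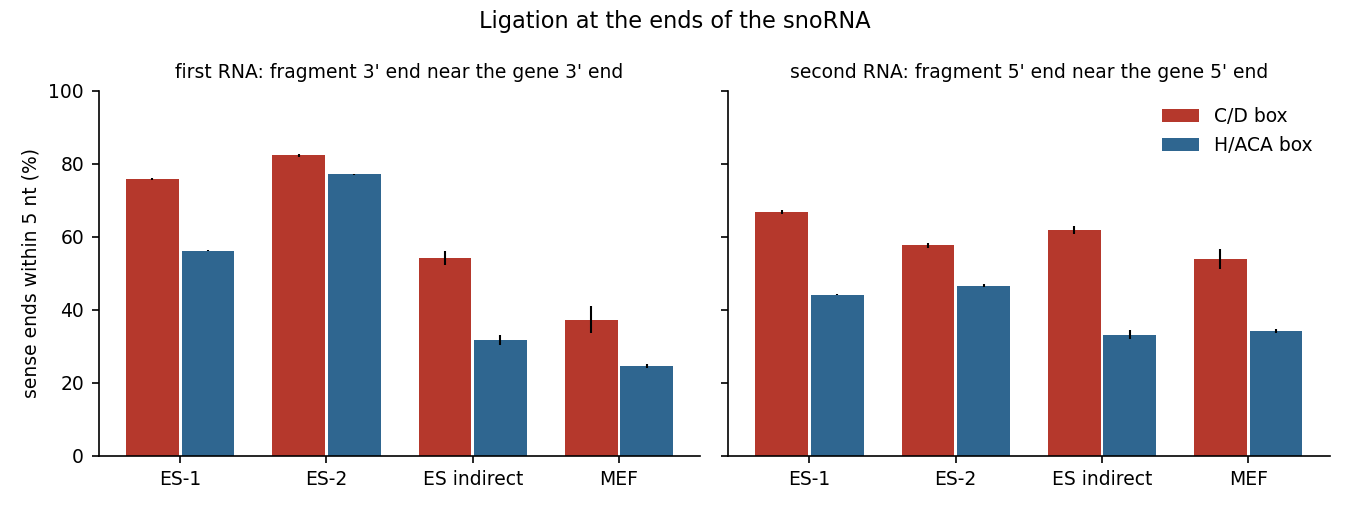
Percent of sense ends joined within 5 nt of the 3′ end of the gene for the first RNA (left) and of the 5′ end for the second RNA (right), in C/D (red) and H/ACA (blue) snoRNAs with 95% Wilson bars. C/D bars are higher in all 4 libraries on both sides, from 37.2% to 82.3% on the left and from 53.9% to 66.7% on the right.

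Among the 20 RNAs with most ends, many had the same median junction in each ES library and others did not. SNORD74 was joined with its median 6 nt inside the annotated 3′ end as RNA1 and 7 nt inside the 5′ end as RNA2, in ES-1, ES-2 and ES indirect alike. SNORD36 was joined at its exact annotated 3′ end (median 0 nt) in the same 3 libraries, and Snord104 at 4 nt beyond its annotated 3′ end. In ES indirect the RNA1 medians of SNORD74, SNORD36 and Snord104 rest on 17, 9 and 70 ends. Snord118 differed between libraries, with medians of 18 nt inside the 3′ end in ES-1, 27 in the indirect library and 2 beyond the end in ES-2. On the RNA2 side the medians of Snord22, Snord49b, SNORD60 and Snord83b lay 49.5, 17, 40 and 26 nt inside the 5′ end in ES-2, but at 0, −5 (outside the gene), 0 and 3 nt in ES-1. The share on the RNA1 side ranged from 19.7% for a SNORD50 copy to 98.8% for a hostless SNORD26 copy in ES-1 (Spearman's rho of 0.838 with ES-2 over 134 names). It was much lower in the indirect library, as for SNORD79 (90.7% in ES-1, 85.4% in ES-2 and 33.3%) and SNORD74 (60.5%, 49.6% and 8.41%). SNORD44 of Gas5 had 19.9% and 8.45%. The rRNA share went from 43.3% for Snord93 to 82.5% for Snord88c in ES-1.

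Pairs of RNAs were next tested for more read pairs than predicted, with rRNA, unannotated ends and pairs within 2000 bp left out. The prediction was the product of the ends of both RNAs, on either side, over the number of read pairs. It exceeds what random joining of all ends regardless of side would give. With first and second RNA counted apart, 660 pairs of the merged libraries were called. In ES-1, 178 of 22881 tested pairs with a C/D RNA were called (0.778%), at an adjusted p under 0.05 and at least 3 read pairs, against 1.09% of all pairs. In ES-2 it was 120 of 12512 (0.959% against 0.719%), in the indirect library 19 of 2719 (0.699% against 2.54%), in MEF 5 of 888 (0.563% against 0.842%) and in ES-1 and ES-2 merged 274 of 32312 (0.848% against 0.895%). The C/D share was above the background in ES-2 and below it in the others, and no more is read from the totals. Adjustment is over pairs joined at least once. Over all possible pairs of the names seen, 61 pairs of the merged libraries and 9 in both libraries were called.

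Between libraries, 35 pairs were called in each of ES-1 and ES-2, which is 19.7% of the ES-1 calls and 29.2% of the ES-2 calls. By the sequence of the partner fragments, 7 joined copies of the same snoRNA, 5 held the snoRNA's own sequence, 11 held rRNA sequence and 4 rested on short or mismatched fragments. The remaining 8 had none of these. P-values here are adjusted Benjamini-Hochberg values of a one-sided Fisher's exact test over read pairs, with no replicate error.

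The first of the 10 pairs with most read pairs was Snord13 with the LINE repeat L1Md_F3 (80 read pairs, 31.4 predicted, Fisher's exact test, adjusted p = 1.19e-10), and all of its partner fragments held rRNA sequence. So did those of Snord34 with L1Md_F3 (34, 13.6 predicted), of SNORD60 with Nusap1 (38, 0.412 predicted) and of Snord1b with Dnahc7b (26, 4.71 predicted). The Nusap1 fragments had a median of 16 nt, and 47.4% held the complement of SNORD60. Snord118 with U8 (34, 0.826 predicted) and SNORD50 with another SNORD50 (29, 1.1 predicted) joined an RNA with its own copy. SNORD79 with the LINE repeat Lx8 (28, 13.2 predicted) rested on fragments of a median of 19 nt, of which 3.57% matched the genome and had the length. In 7 of the 10 named pairs the partner sequence was thus rRNA, the snoRNA itself or too short to place.

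The other three joined well-matched fragments. SNORD94 with U6, the catalytic small nuclear RNA of the spliceosome, had 78 read pairs (38 from ES-1, 40 from ES-2), where 4.27 were predicted (Fisher's exact test, adjusted p = 1.78e-66), and 33 more in the indirect library, where it was called too. Snord49a with SNORA48 had 32 (24 and 8) against 10.4 predicted (Fisher's exact test, adjusted p = 1.90e-05), and SNORD25 with SNORA18 had 28 (22 and 6) against 12.6 predicted (Fisher's exact test, adjusted p = 0.00691). The last was not called in the merged libraries with rRNA kept in the table. Of the 8 pairs with none of the listed features, others were SNORD36 with Snora33 (23), Snord42b with SNORA54 (13), Snord89 with SCARNA15 (13) and Snord67 with U6 (12), named after their values were seen.

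U6 carries ribose methylation guided by C/D RNAs, so the pair of them called with it in both ES-1 and ES-2 are shown with their longest complement to the joined U6 fragments in capitals. Each is followed by that stretch of U6.
Snord67: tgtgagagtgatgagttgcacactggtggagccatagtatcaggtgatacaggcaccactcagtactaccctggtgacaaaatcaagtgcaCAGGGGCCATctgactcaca
U6 joined to Snord67: ATGGCCCCTG
SNORD94: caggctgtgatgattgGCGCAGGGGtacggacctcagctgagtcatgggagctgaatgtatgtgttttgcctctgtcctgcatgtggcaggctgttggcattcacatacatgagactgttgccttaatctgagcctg
U6 joined to SNORD94: CCCCTGCGC

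Snord67 lies in Ckap5 at chr2:91436227-91436337 on the plus strand and SNORD94 in Ptcd3 at chr6:71832551-71832687 on the minus strand. The 10-nt element of Snord67 runs up to the CTGA near its 3′ end, and the 9-nt element of SNORD94 lies 12 nt before a CTGA. All 6 U6 fragments joined to Snord67 in ES-1 and all 6 in ES-2 held the complement, but so did 77.1% and 81.5% of U6 fragments joined to other snoRNAs. For SNORD94 it was 13 of 38 in ES-1 (34.2%), 31 of 40 in ES-2 (77.5%) and 18 of 33 in the indirect library (54.5%), against 79.2%, 81.2% and 61.3%. An excess of the complement was thus not seen for SNORD94 and could hardly have shown for Snord67, and the pairs rest on the number of read pairs. In the merged libraries Snord104 (15 read pairs), SNORD88 (3) and SNORD113 (3) were also called with U6, all from ES-1.

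Contacts between different snoRNAs of 1 host gene were few. In ES-1, 157 of 13770 read pairs between hosted snoRNAs with at least 1 C/D end (1.14%, 0.976 to 1.33) joined 2 RNAs of the same host, 57 of 2421 did in ES-2 (2.35%, 1.82 to 3.04), 17 of 205 in the indirect library (8.29%, 5.24 to 12.9) and 3 of 117 in MEF (2.56%, 0.876 to 7.27). The ends of the RNAs predicted 362 in ES-1, 47.2 in ES-2, 6.24 in the indirect library and 1.83 in MEF. Contacts within a host were thus below the prediction in ES-1 and above it in the other three, by the most in the indirect library, and no test was made of these totals. RNAs of 1 family, whose symbols are equal apart from case and a final copy letter, such as Snord14c with Snord14d, share sequence and may be self pairs. They made up 38 of the contacts in ES-1, 37 in ES-2, 13 in the indirect library and 1 in MEF. Without them in either count, 119 contacts against 350 predicted remained in ES-1, 20 against 40.8 in ES-2, 4 against 1.58 in the indirect library and 2 against 1.72 in MEF, so ES-2 turned to below the prediction and the indirect library rests on 4 read pairs. Over ES-1 and ES-2 together 214 were seen, of 21 hosts, with 405 predicted. Of them 181 lay within 2000 bp and 75 joined RNAs of 1 family.

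Gas5 had most, with 75 read pairs among 9 snoRNAs, of which 32 joined SNORD74 with SNORD79. Snhg5 had 19, all between its 2 SNORD50 copies, Snhg1 had 18 over 10 combinations, and Hspa8 had 17, all Snord14c with Snord14d. Per 1000000 snoRNA ends of the host this was 1765 for Gas5, 8261 for Snhg5, 597 for Snhg1 and 9588 for Hspa8. Of these 4 hosts, Snhg5 and Hspa8 had the highest rates, and their joined RNAs belong to 1 family and share sequence, so a self pair may be counted as a contact. Hspa8 was also the first host in the indirect library, with 12 of the 17.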

How the data were processed

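MARIO libraries from 3 ES cell samples and 1 MEF sample were analysed; the brain libraries were not used here. The deposited files hold no measured value (unit "other"): each line is 1 read pair with position, strand, sequence, RNA type and RNA name of RNA1 and RNA2. Per the study's methods, the authors removed duplicates by position and random barcode, located the linker and kept molecules with both fragments uniquely placed. TopHat2 2.1.1 and the builds mm9 and NCBIM37 are named in the submitters' processing notes, without their role. Removal of remaining duplicates, unique placing of near-identical copies and short fragments can all shift the counts of single snoRNAs.

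Lines with equal coordinates were counted once here, with Python 3.11.15, pandas 2.3.3, NumPy 2.4.6 and SciPy 1.17.1 (figures with Matplotlib 3.10.9). Groups follow the labels. Genes, hosts (same strand) and sequences came from GENCODE vM1 and the NCBIM37 genome. Classes were compared within libraries by exact two-sided sign-flip permutation tests. Pairs of names were tested over the whole table by one-sided Fisher's exact test with Benjamini-Hochberg adjustment, called at 0.05 and at least 3 read pairs. Intervals are 95% Wilson. Scripts were tested on simulated data. Alternatives were every line counted, fragments of at least 20 nt with at most 15% mismatch, sense strand, at least 5 read pairs, no distance limit, rRNA kept, pairs of 1 family (symbols equal apart from case and a final copy letter) left out and each library left out.

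Members and lists were chosen with earlier results of these data known. The named RNAs are the 20 with most ends per 1000000 (mean of ES-1 and ES-2), the 10 pairs with most read pairs called in both, the 5 hosts with most contacts and the lists for rRNA processing, imprinted clusters, Gas5, Snhg1 and Rpl13a. The complementarity analysis with its 10-nt and 12-nt alternatives, the count with first and second RNA apart, the adjustment over all possible pairs, sense self pairs, and other named RNAs were chosen after seeing the data. Of the named hosts 1, and of the complementary sites 2, are not reported here.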

Additional observations from a re-analysis of the deposited data

Results flagged for a closer look

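The share of rRNA among partners differed in direction between groups. C/D minus H/ACA was 10.2 percentage points in ES indirect (51.5% against 41.3%) and −6.75 in MEF (24.5% against 31.2%). Each is 1 library, so the difference between them was not tested. ES-1 (3.17) and ES-2 (−0.204) lay between. In MEF 35.1% of C/D ends and 44.9% of H/ACA ends had fragments of at least 20 nt that matched the genome, against 77.9% and 75.3% in ES indirect. With such fragments alone the shares were 64.7% against 56.7% in ES indirect and 62.2% against 64.4% in MEF, so the signs stayed opposite and the MEF difference was smaller.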

How the results depend on the processing

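No paired analysis was possible because only the ES and brain labels carry replicate numbers, and the brain libraries were not used here. Of the values that answer a comparison, 58 recomputed under an alternative kept their direction and moved by less than 1 SD between libraries or, for counts, less than 1.5 times. That includes the self-pair (−0.635) and RNA1 position (0.0585) differences without ES indirect and the rRNA difference without MEF (4.39). The rRNA difference was reversed without ES indirect (−1.26, range −1.26 to 4.39 over the libraries left out). Called pairs with a C/D RNA in the merged ES libraries (274) became 2329 with every line counted, 122 with well-matched fragments, 120 at 5 read pairs, 660 with first and second RNA counted apart, 61 adjusted over all possible pairs, and 120 to 178 with 1 ES library left out. Those in both libraries (35) became 17 with well-matched fragments, 17 at 5 read pairs and 9 adjusted over all possible pairs. Contacts within a host (214) became 33 without pairs within 2000 bp, 139 without pairs of 1 family, and 57 to 157 with 1 ES library left out (57 without ES-1). Called windows at CTGA (30 in ES-1, 20 in ES-2) became 12 and 11 with 12-nt complements and 31 in ES-2 with 10-nt ones. A longer or shorter complement gives fewer or more windows by construction, and for the others the cause was not tested. The RNA2 junction of C/D was lower in 3 of 4 libraries, not in ES-2, with every line counted (−0.0884) and with well-matched fragments (−0.0766). Among the 10 named pairs, SNORD60 with Nusap1 had 0 read pairs and SNORD79 with Lx8 had 1 with well-matched fragments. In the merged libraries, Snord34 with L1Md_F3, SNORD25 with SNORA18 and SNORD79 with Lx8 were not called when adjusted over all possible pairs. SNORD25 with SNORA18 and SNORD79 with Lx8 were not called there with rRNA kept either. In both ES-1 and ES-2, only 4 of the 10 stayed called when adjusted over all possible pairs, and 5 with rRNA kept. Of the 20 named RNAs, 8 moved by over 1 SD with well-matched fragments. Depth limits MEF most, with 1970 C/D ends, and few windows in ES indirect could be examined.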
